A study of Mus musculus with 6 samples.

Results

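Genes of the endoplasmic reticulum (ER) machinery that carries, folds and discards secretory proteins were followed in RNA-seq libraries of whole mouse pancreas. A list of 48 genes was drawn up from their known roles, and the 47 that are in the deposited table were used, out of 10245 genes in all. Sec61g, the remaining gene, was not analysed here. The list holds the signal recognition particle (SRP) and its receptor, the translocon, the signal peptidase complex, the HSP70 and HSP90 chaperones with their cofactors, the lectin chaperones, the enzymes of disulfide bond formation, and ER-associated degradation (ERAD).

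Libraries were made from 3 control mice, Ptf1a(CreER/+), and 3 Ptf1a cKO mice, Ptf1a(CreER/fl). All mice were given tamoxifen by gavage at 0.25 mg per g of body weight on days 0, 1 and 2 and were killed on day 14. In each group 1 mouse was male and 2 were female. The males were control replicate 1 and Ptf1a cKO replicate 2. Control mice were 4 months old and Ptf1a cKO mice 5 months old, so age cannot be told apart from genotype. Every mouse carried 1 Ptf1a allele replaced by CreER, which makes no PTF1A protein, so the controls were heterozygous for Ptf1a. Cre was driven by the Ptf1a locus and thus acted in acinar cells, and the other allele was floxed in the Ptf1a cKO mice alone. Values are normalized read counts on the authors' scale, with 1 library per mouse. Ptf1a itself stood at 566, 601 and 652 normalized counts in the controls and at 19.8, 70.1 and 10.2 in Ptf1a cKO replicates 1, 2 and 3, which is -4.41 on the log2 scale (adjusted p = 3.29e-04, limma). Median genes ran from 125.0 to 128.5 normalized counts across libraries, while the sum over genes was 17949900 to 21175800 in controls and 5527100 to 8981110 in Ptf1a cKO. Depth cannot be read from such scaled sums, and no counting error can be given. The authors' methods report similar numbers of uniquely aligned reads for both groups.

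Acinar cells make and secrete digestive enzymes in very large amounts, and their cytoplasm is filled with rough ER. SRP binds the signal peptide of a nascent chain and brings the ribosome to the translocon, where the chain enters the ER and signal peptidase removes the signal peptide. Chaperones and disulfide isomerases then fold the chain, and chains that do not fold are recognised, passed back to the cytosol and degraded by ERAD. Many genes of these steps are targets of the unfolded protein response, whose factors ATF6 and XBP1 bind the ER stress response element (ERSE) together with NF-Y.

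The ERSE was far more frequent before these genes than before genes at large. The list was drawn from known roles and holds known targets of this response, so that frequency is no result of these data. The sites are shown because the genes that carry the element differed in direction. Promoter windows of 300 bases, from 250 before to 50 after the transcription start, were taken from RefSeq (GRCm38.p6) and matched 39 of the 47 genes by symbol. Of their 40 windows, 35 had the transcribed end in a transcript of the same gene. The element, CCAAT followed by 9 bases of any kind and CCACG, was found on either strand in 10 of the 39 genes (25.6%), against 37 of all 27025 genes with a window (0.137%). In the sites below, written 5′ to 3′ on the strand that reads CCAAT first, capitals mark the letters fixed by the element:
Hspa5 (chr2:34772020-34772048, plus strand): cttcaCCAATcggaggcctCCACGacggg
Hsp90b1, near site (chr10:86705528-86705556, plus strand): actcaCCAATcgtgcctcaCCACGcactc
Hsp90b1, far site (chr10:86705633-86705661, minus strand): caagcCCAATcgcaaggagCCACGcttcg
Dnajc3 (chr14:118937822-118937850, plus strand): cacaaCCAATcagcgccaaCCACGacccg
Creld2 (chr15:88819515-88819543, minus strand): gtggaCCAATtgaggctcgCCACGagaag
Calr (chr8:84847070-84847098, plus strand): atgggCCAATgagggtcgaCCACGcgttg
Canx (chr11:50325795-50325823, minus strand): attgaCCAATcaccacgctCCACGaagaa
Pdia6 (chr12:17266486-17266514, plus strand): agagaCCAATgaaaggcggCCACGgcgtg
Ero1lb (chr13:12565677-12565705, minus strand): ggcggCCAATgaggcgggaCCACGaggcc
Syvn1 (chr19:6046527-6046555, plus strand): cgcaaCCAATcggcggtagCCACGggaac
Derl3 (chr10:75893237-75893265, minus strand): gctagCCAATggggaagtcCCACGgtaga
The shorter ERSE-II, ATTGG followed by 1 base of any kind and CCACG, was found in 2 of the 39 genes, Dnajb11 and Herpud1, and in 0.0444% of all genes. The Herpud1 site (chr8:94386372-94386392, plus strand) is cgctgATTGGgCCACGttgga. ERSE and ERSE-II share the letters CCACG but overlapped at no site here. The UPRE, TGACGTGG, was in none of the 39 windows and in 0.714% of all genes.

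Many genes of the machinery fell in Ptf1a cKO pancreata, and a few rose. By limma with Benjamini-Hochberg adjustment over all 10245 genes, 24 of the 47 genes were lower and 3 were higher with an adjusted p under 0.05. Of all genes, 33.9% were called, 16.8% lower and 17.1% higher. The other 20 genes did not pass, of which 14 had fitted values below 0 and 6 above. The median log2 fold change of the 47 genes was -0.44, against 0.036 for all genes. At least 2-fold falls were found for 5 genes, namely Sel1l, P4hb, Ero1lb, Derl3 and Pdia2, where 4.69% of all genes were called with such a fall. These directions hold on the authors' scale, in which the median gene stays level. With every library brought to the same total the median gene moved to 1.48 and the 47 genes to 1.05, so 46 of 47 fitted values were positive, against 9 on the authors' scale. Measured from the median gene under that scaling, 13 genes were lower and 0 higher by adjusted p under 0.05.

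**Figure D1:**
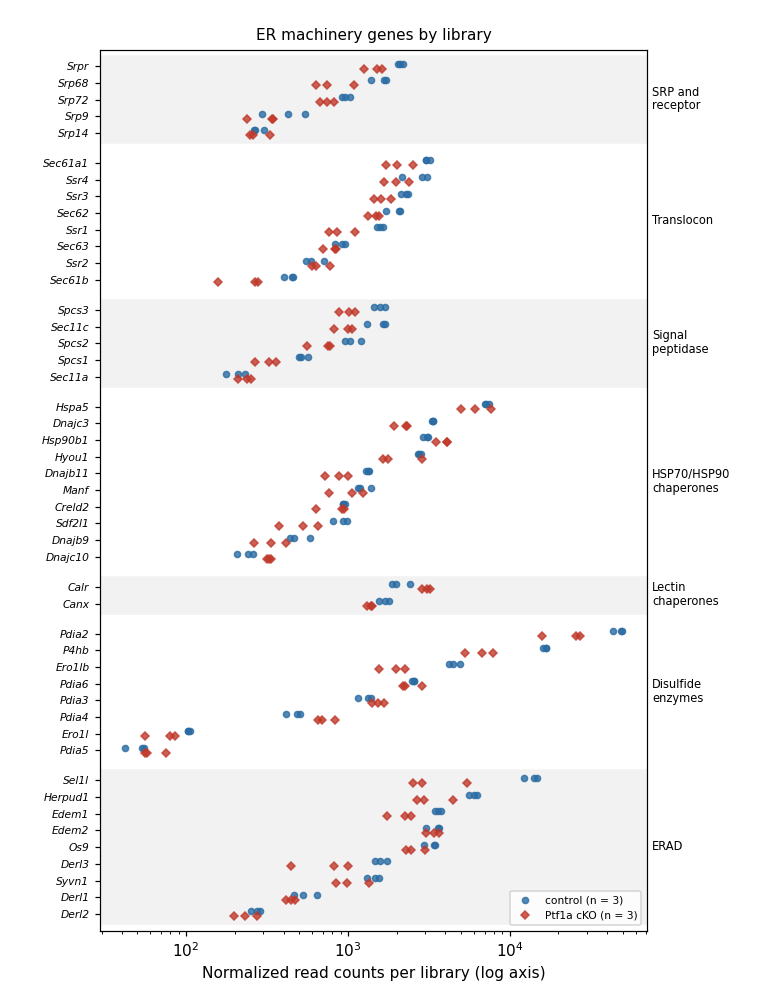
Normalized read counts (log axis) of the 47 ER machinery genes in each of the 3 control libraries (circles) and 3 Ptf1a cKO libraries (diamonds), grouped by step and ordered by control level. Pdia2 lies far to the right of all others, and the groups stand apart for 31 of the 47 genes.

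In all, 31 of the 47 genes had groups that did not overlap, where 50.8% of all genes did. Ptf1a cKO replicate 3 held the lowest of the 3 Ptf1a cKO values in 44 of the 47 genes. Ptf1a cKO replicate 2, which kept the most Ptf1a and was the only male of its group, held the highest value in 31. Among the 24 genes of the list called lower, replicate 3 was the lowest in 23 and replicate 2 the highest in 16. Over all 1724 genes called lower, replicate 3 was the lowest in 1107 and replicate 2 the highest in 1150. Without Ptf1a cKO replicate 3 there were 20 genes lower and 4 higher, and without replicate 2 there were 26 and 3. Without control replicate 1 a single gene, Pdia4, was still called higher and 18 were lower. As few as 16 genes were lower without control replicate 2.

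Markers of other cells moved with genotype in the same libraries. Gastric chief cell genes, which also belong to cells rich in ER, were higher for 4 of 4 genes, and their summed level was 2430 to 4295 normalized counts in controls and 132090 to 412690 in Ptf1a cKO. Pga5, a pepsinogen and the highest of them, rose from a mean of 1750 to 186470 normalized counts. Leukocyte markers were higher for 8 of 9 genes (491 to 809 against 1266 to 2794), although Ptprc, the pan-leukocyte marker, did not pass (adjusted p = 0.0772, limma) and reached 419 normalized counts in Ptf1a cKO replicate 3 alone. Fibroblast and stellate cell markers were higher for 9 of 10 genes (3058 to 3475 against 5991 to 10563), and duct markers for 5 of 8 (3796 to 4674 against 25320 to 109810), with Krt19 at 241 and 243 on average. The highest gene was Spp1 among duct markers (means of 1654 and 71274), Lyz2 among leukocyte markers (320 and 880) and Col3a1 among fibroblast and stellate cell markers (918 and 2478). Of 12 plasma and B cell markers 3 are in the table, with sums of 137 to 249 against 237 to 434. A single gene of the 3 was called. This gene, Igj, which joins antibody chains in plasma cells, rose from 18.6, 4.08 and 51.4 to 62.0, 130 and 133 normalized counts. Sdc1, the highest of the 3, was at means of 168 and 204 (adjusted p = 0.215, limma), and Cd79b at 5.74 and 33.3 (0.658), with 0, 5.73 and 94.3 in Ptf1a cKO replicates 1, 2 and 3. None of 6 endothelial markers (949 to 1289 against 950 to 1097) and none of 10 endocrine markers (11690 to 43167 against 5967 to 33997) was called, with Plvap and Ins2 the highest of each. The part of these cells in the changes of the ER machinery was not tested, and in whole pancreas fewer acinar cells and less RNA per acinar cell cannot be told apart. Digestive enzymes and other secreted acinar proteins took 77.4% to 81.0% of normalized counts in controls and 36.9% to 61.5% in Ptf1a cKO. Ctrb1, a chymotrypsinogen, was the highest of them.

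SRP and its receptor were lower for 3 of 5 genes, with a median log2 fold change of -0.43. Srp68, which with Srp72 forms the largest protein dimer of the particle, had 1680, 1721 and 1392 normalized counts in controls and 741, 1086 and 639 in Ptf1a cKO. All Ptf1a cKO values lay below all controls, and the change was -0.99 ± 0.19 (log2, SE, adjusted p = 0.00476, limma). Its partner Srp72 fell less, from 963, 920 and 1028 to 746, 816 and 668 normalized counts (-0.39, adjusted p = 0.0330, limma), and this call was lost in 5 of 6 fits with 1 library left out (adjusted p up to 0.0939) and kept without Ptf1a cKO replicate 2. Srpr, the receptor subunit that docks SRP at the ER, fell from a mean of 2110 to 1467 (-0.53, adjusted p = 0.0139, limma). Without control replicate 2 its adjusted p was 0.0613. Srp9 and Srp14 form the domain that slows elongation. Srp14 had nearly level means of 276 and 278. Srp9 was at 294, 425 and 544 in controls, the widest control spread of the step relative to its mean, and at 343, 338 and 239 in Ptf1a cKO (adjusted p = 0.171, limma). It passed without control replicate 1 (adjusted p = 0.0487, limma) and in females only (0.0356), which also leaves out control replicate 1.

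In the translocon 5 of 8 genes were lower, with a median of -0.45. Sec61a1 encodes the channel itself and had 3045, 3207 and 3057 normalized counts in controls against 1998, 2516 and 1730 in Ptf1a cKO. The groups did not overlap, and the change was -0.59 ± 0.15 (log2, SE, adjusted p = 0.0172, limma). Without control replicate 1, control replicate 2 or Ptf1a cKO replicate 1 its adjusted p was 0.0588, 0.0684 and 0.0536. Sec61b, a small subunit of the channel, fell more, from 460, 449 and 400 to 266, 277 and 157 normalized counts (-0.94, adjusted p = 0.00766, limma). Of the TRAP complex, which assists the channel, Ssr1 fell from 1509, 1649 and 1581 to 853, 1108 and 766 (-0.81, adjusted p = 0.00348, limma), and Ssr3 from a mean of 2265 to 1631 (-0.48, adjusted p = 0.0198, limma). The Ssr3 call was lost without control replicate 1, control replicate 2 or Ptf1a cKO replicate 1 (adjusted p = 0.0531, 0.0815 and 0.0576). Ssr2 of the same complex had 591, 709 and 550 normalized counts in controls and 633, 775 and 598 in Ptf1a cKO, with overlapping groups and a fitted value of 0.12 (95% interval -0.21 to 0.44). Ssr4 was at -0.43 and did not pass (adjusted p = 0.0954, limma), but passed without control replicate 3 (0.0432). Sec62, a partner of the channel in post-translational import, fell from a mean of 1953 to 1459 (-0.42, adjusted p = 0.0365, limma). That call was lost in 4 of the 6 fits with 1 library left out, with adjusted p values of 0.138, 0.132, 0.0582 and 0.0931 without control replicates 1 and 2 and Ptf1a cKO replicates 1 and 3. Sec63, which recruits the chaperone BiP to the channel, was at 901 and 793 on average (-0.19, adjusted p = 0.257, limma).

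All but 1 of the 5 signal peptidase genes were lower, with a median of -0.65. Spcs1, an accessory subunit, fell from 513, 501 and 570 to 361, 326 and 265 normalized counts (-0.74, adjusted p = 0.00358, limma). Spcs3, which the complex needs for cleavage, fell from a mean of 1568 to 1003 (-0.65, adjusted p = 0.00506, limma) and Spcs2 from 1063 to 696 (-0.62, adjusted p = 0.0163, limma). Without control replicate 3 the adjusted p of Spcs2 was 0.0523. The complex has alternative catalytic subunits, of which 1 was called. Sec11c had 1688, 1647 and 1321 normalized counts in controls and 1053, 1008 and 819 in Ptf1a cKO (-0.69 ± 0.15, adjusted p = 0.00708, limma). Sec11a had 230, 211 and 177 in controls and 239, 250 and 209 in Ptf1a cKO, overlapping groups with a fitted value of 0.18 (95% interval -0.12 to 0.48). Within a library, where no scaling enters, the ratio of Sec11c to Sec11a counts, not corrected for length, was 7.33, 7.82 and 7.48 in controls and 4.41, 4.03 and 3.92 in Ptf1a cKO. The spread within each group was small beside this difference.

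**Figure D2:**
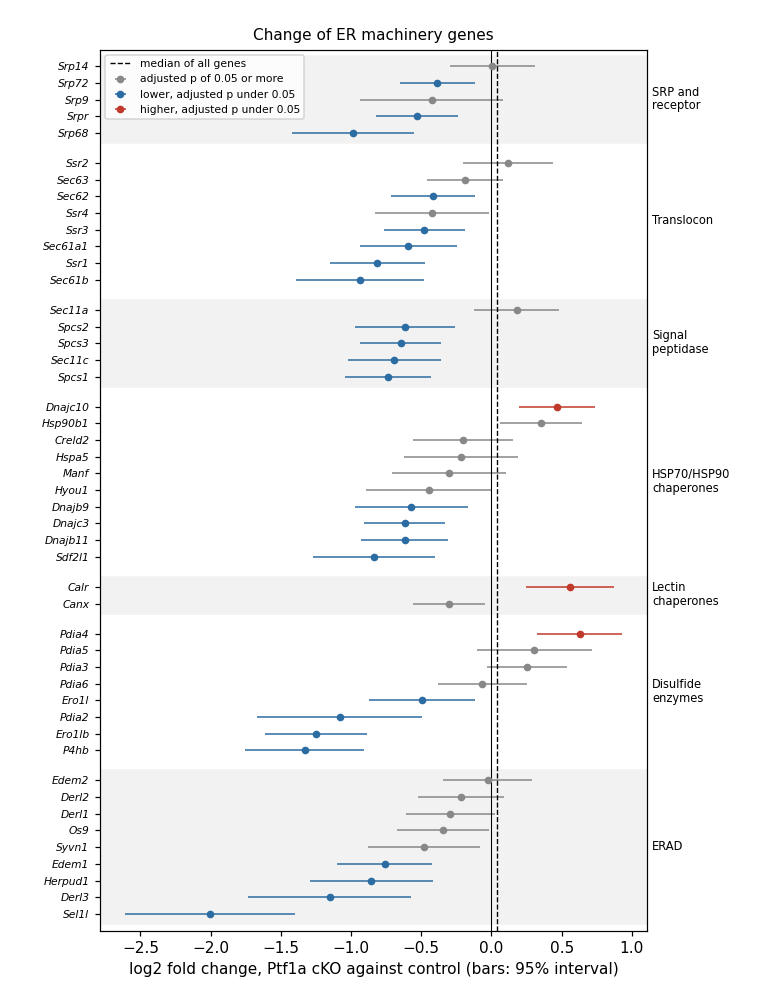
Log2 fold change of each gene in Ptf1a cKO against control with its 95% interval from limma, grouped by step; blue marks genes called lower, red genes called higher and grey the others, and the dashed line is the median of all genes. Sel1l lies farthest to the left at -2.01, and Pdia4 farthest to the right at 0.63.

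Among 10 chaperones and cofactors of the HSP70 and HSP90 families, 4 were lower and 1 was higher. The central chaperones did not pass. Hspa5 encodes BiP, the HSP70 of the ER, and had 7087, 7069 and 7424 normalized counts in controls and 6135, 7697 and 4996 in Ptf1a cKO. The Ptf1a cKO values lay on either side of the controls, and the log2 fold change was -0.22 (95% interval -0.63 to 0.19, adjusted p = 0.373, limma). Hsp90b1, the HSP90 of the ER known as GRP94, was higher in every Ptf1a cKO library (4090, 4095 and 3526) than in any control (3081, 3146 and 2906). Its fitted value of 0.36 did not pass (adjusted p = 0.0608, limma). It passed without Ptf1a cKO replicate 3 (adjusted p = 0.0359), with the same 75th percentile (0.0346) and with the same total without the secreted cargo (0.0112). Hyou1, a nucleotide exchange factor of BiP, was at 1775 and 1645 in Ptf1a cKO replicates 1 and 3 but at 2860 in replicate 2, against 2826, 2696 and 2762 in controls. It did not pass with all libraries (adjusted p = 0.115, limma) and was at -0.69 without replicate 2 (adjusted p = 0.00230). In females only, which also leaves out replicate 2, it was at -0.67 (0.0200).

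Cofactors of BiP with a J domain moved both ways. Dnajc3, known as P58IPK, was at 3305, 3353 and 3340 in controls and at 2319, 2301 and 1922 in Ptf1a cKO (-0.62 ± 0.13, adjusted p = 0.00638, limma). Dnajb11, or ERdj3, fell alongside it from a mean of 1327 to 872 (-0.62, adjusted p = 0.00873, limma), and the ratio of Dnajb11 to Dnajc3 was 0.389 to 0.409 in controls and 0.376 to 0.437 in Ptf1a cKO. Sdf2l1, which forms a complex with ERdj3, fell from 937, 807 and 984 to 529, 656 and 374 (-0.84, adjusted p = 0.0103, limma). Dnajb9, or ERdj4, fell from a mean of 496 to 336 (-0.57, adjusted p = 0.0355, limma), a call that was kept only without Ptf1a cKO replicate 2 among the 6 fits with 1 library left out (adjusted p up to 0.109 in the others). Dnajc10, or ERdj5, a reductase that opens disulfide bonds before degradation, rose from 206, 258 and 242 to 314, 326 and 337 normalized counts (0.47, adjusted p = 0.0158, limma), with an adjusted p of 0.0644 without control replicate 1. Creld2 and Manf, stress-induced proteins of the ER lumen, were at -0.20 and -0.31 with overlapping groups and did not pass.

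Calnexin and calreticulin bind the sugar of newly made glycoproteins and share most clients, but only the transcript of calreticulin was called, as higher. Calr, encoding the soluble calreticulin, rose from 1979, 1870 and 2416 to 3102, 3211 and 2862 normalized counts. The change was 0.56 ± 0.14 (log2, SE, adjusted p = 0.0145, limma), and adjusted p was 0.0685 and 0.0750 without control replicates 1 and 2. Canx, encoding the membrane-bound calnexin, was at 1561, 1702 and 1793 in controls and 1412, 1382 and 1304 in Ptf1a cKO (-0.30, adjusted p = 0.0699, limma). Every Ptf1a cKO library lay below every control for Canx and above every control for Calr. The ratio of Calr to Canx accordingly went from 1.27, 1.10 and 1.35 to 2.20, 2.32 and 2.19 (1.81-fold higher). Under the same total relative to the median gene, neither gene was called.

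Of the 8 disulfide enzymes 4 were lower and 1 was higher. Pdia2 encodes the pancreas-specific disulfide isomerase and was the highest gene of the list at 49392, 48542 and 43624 normalized counts in controls, or 27418 per kilobase of exon on average. In Ptf1a cKO it stood at 27090, 25504 and 15943, a change of -1.08 ± 0.26 (log2, SE, adjusted p = 0.0127, limma), and it remained the highest per kilobase. Its adjusted p rose to 0.0598 and 0.0591 without control replicates 1 and 2. P4hb, the general disulfide isomerase PDI, fell from 16733, 16689 and 15968 to 6741, 7902 and 5270 (-1.33 ± 0.19, adjusted p = 0.00101, limma). Ero1lb, the ERO1 oxidase known from pancreas, which reoxidises PDI, fell from 4906, 4490 and 4188 to 1970, 2241 and 1548 (-1.25 ± 0.16, adjusted p = 6.34e-04, limma). Ero1l, the widely expressed oxidase, had a control level of 19.6 normalized counts per kilobase, against 681 for Ero1lb, and fell from a mean of 104 to 73.6 normalized counts (-0.50, adjusted p = 0.0458, limma), with the call lost in 5 of 6 fits with 1 library left out (adjusted p up to 0.129) and kept without Ptf1a cKO replicate 2.

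Other isomerases did not follow P4hb. Pdia4, or ERp72, rose from 417, 482 and 505 to 692, 838 and 650 normalized counts, the largest rise of the list (0.63 ± 0.13, adjusted p = 0.00726, limma). Pdia3, or ERp57, which works with calnexin and calreticulin, had 1327, 1397 and 1161 in controls and 1541, 1667 and 1417 in Ptf1a cKO. Its groups did not overlap, but at 0.25 it did not pass (adjusted p = 0.147, limma), although it did with the same total without the secreted cargo (0.0273). Pdia5 was low, at 49.9 and 62.6 on average, and did not pass (0.30, adjusted p = 0.222, limma), although its groups did not overlap. Pdia6 was at 2526 and 2432 on average, a fitted value of -0.065 (95% interval -0.38 to 0.25).

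ERAD held the deepest fall of the list. Sel1l, the scaffold of the HRD1 ubiquitin ligase complex, went from 14155, 14747 and 12231 normalized counts in controls to 2871, 5420 and 2529 in Ptf1a cKO, which is 26.3% of the control mean. The change was -2.01 ± 0.27 (log2, SE, adjusted p = 7.72e-04, limma). It was the only one of the 47 genes that stayed below 0 with every library at the same total (-0.51). Syvn1, which encodes the HRD1 ligase that Sel1l holds, was at 1480, 1317 and 1563 in controls and at 980, 1357 and 840 in Ptf1a cKO. The replicate 2 value lay among the controls, and Syvn1 was at -0.48 with all libraries (adjusted p = 0.0620, limma). It passed without that library (-0.67, adjusted p = 0.00452), in females only (0.0261) and with sex as a covariate (0.0453). Since replicate 2 was the only male Ptf1a cKO mouse, these fits are not independent.

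Derl3, a Derlin of secretory cells, fell from 1585, 1467 and 1756 to 822, 1000 and 447 normalized counts (-1.15 ± 0.26, adjusted p = 0.00870, limma). The widely expressed Derl1 and Derl2 were at -0.29 and -0.21 with overlapping groups and did not pass. Herpud1, a stress-induced partner of HRD1, fell from 6255, 6005 and 5579 to 2961, 4437 and 2688 (-0.86, adjusted p = 0.00961, limma). Edem1, a mannose-trimming factor that marks glycoproteins for degradation, fell from 3605, 3773 and 3459 to 2253, 2445 and 1752 (-0.76, adjusted p = 0.00510, limma). Edem2, which acts at the preceding trimming step, was at 3650, 3626 and 3044 in controls and 3677, 3393 and 3052 in Ptf1a cKO, with a fitted value of -0.027 (95% interval -0.34 to 0.29). Os9, a lectin that delivers clients to Sel1l, was at -0.35 and did not pass (adjusted p = 0.0930, limma).

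Ratios of related genes within a library do not depend on how libraries are scaled. Of 11 pairs, 10 had Ptf1a cKO ratios that did not overlap the controls. Each of these had a two-sided p of 0.10 in an exact permutation test, the smallest that 3 against 3 allow, and 0.11 after adjustment over the 11 pairs. How many other gene pairs stand apart was not counted, and of single genes 50.8% did. In Ptf1a cKO the ratio of Derl3 was 1.92-fold lower to Derl2 and 1.82-fold lower to Derl1. That of Sec11c to Sec11a was 1.83-fold lower, that of Ero1lb to Ero1l 1.69-fold and that of Edem1 to Edem2 1.66-fold. Hsp90b1 to Hspa5 was 1.49-fold higher. Pdia2 to P4hb was 1.19-fold higher although both genes fell. Sec62 to Sec63 and Hyou1 to Hspa5 were each 1.17-fold lower. For Hyou1 to Hspa5 the groups barely stood apart, at 0.3720 in control replicate 3 and 0.3716 in Ptf1a cKO replicate 2.

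**Figure D3:**
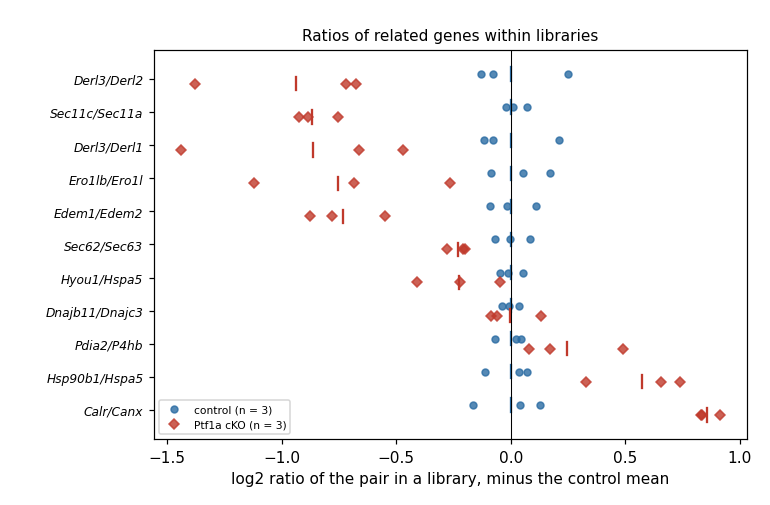
Log2 ratio of each of 11 gene pairs in each control (circles) and Ptf1a cKO (diamonds) library, set relative to the control mean of the pair; short bars mark group means. Only Dnajb11/Dnajc3 has overlapping groups, and the mean differences run from -0.94 for Derl3/Derl2 to 0.86 for Calr/Canx.

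The genes with an ERSE did not move as a block. Among the 10 genes 3 were lower (Ero1lb, Derl3 and Dnajc3), 1 was higher (Calr) and 6 did not pass, with a median log2 fold change of -0.26 and a range from -1.25 to 0.56. Of the 29 other genes with a window, 17 were lower and 2 higher, with a median of -0.48. These 29 include Dnajb11 and Herpud1, which carry ERSE-II and were both called lower. Of all genes, 16.8% were called lower and 17.1% higher. The Hspa5 and Ero1lb sites share the fixed letters, and the transcripts were at 87.2% and 42.4% of their control means. Herpud1, with the shorter element, was at 56.5%.

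The machinery kept more of its control level than the transcripts of a list of acinar secreted proteins. Summed over the 47 genes, normalized counts on the authors' scale were 148410 to 159310 in controls and 74973 to 106080 in Ptf1a cKO. The Ptf1a cKO mean was 59.9% of control. The summed counts of 30 digestive enzymes and secreted acinar proteins came to 22.8% of control. Of these 30 genes 23 were called lower and 1 higher, and Ctrb1, the highest, did not pass (adjusted p = 0.0864, limma). Secreted proteins that rose, such as Pga5 and Spp1, are not on this list. Relative to this cargo the machinery was 0.929%, 0.937% and 1.07% in controls and 2.91%, 1.92% and 3.68% in Ptf1a cKO replicates 1, 2 and 3. Every Ptf1a cKO library thus lay above every control, by 2.81-fold on average, or 1.49 on the log2 scale with a pooled SD of 0.345 (n = 3 in each group). The cargo list is acinar only, and the part of other cell types in this ratio was not tested. Pdia2 alone made up 29.4% to 31.0% of the summed machinery in controls and 21.3% to 27.5% in Ptf1a cKO, and without it the difference was 1.61 on the log2 scale. Alignments to several places were not assigned to genes, so the levels of near-identical enzymes are uncertain.

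**Figure D4:**
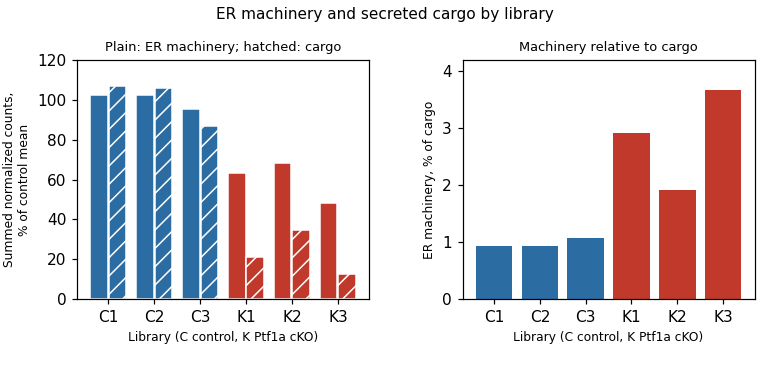
Left, summed normalized counts of 47 ER machinery genes (plain bars) and 30 secreted cargo genes (hatched bars) in each library as percent of the control mean. Right, the machinery sum as percent of the cargo sum, which is near 1% in the 3 controls and 1.92% to 3.68% in Ptf1a cKO.

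The 16 genes with the highest control level per kilobase of exon had a median log2 fold change of -0.52, the middle 15 of -0.53 and the lowest 16 of -0.34. Across the 47 genes, which share their libraries and are not replicates, Spearman's rho between control level per kilobase and log2 fold change was -0.352 (Pearson's r on the log2 level -0.451). Part of this is shared measurement, since the control values enter both, and against the mean of both groups rho was -0.254. Calr moved from 12th to 5th place per kilobase and Sel1l from 5th to 16th.

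**Figure D5:**
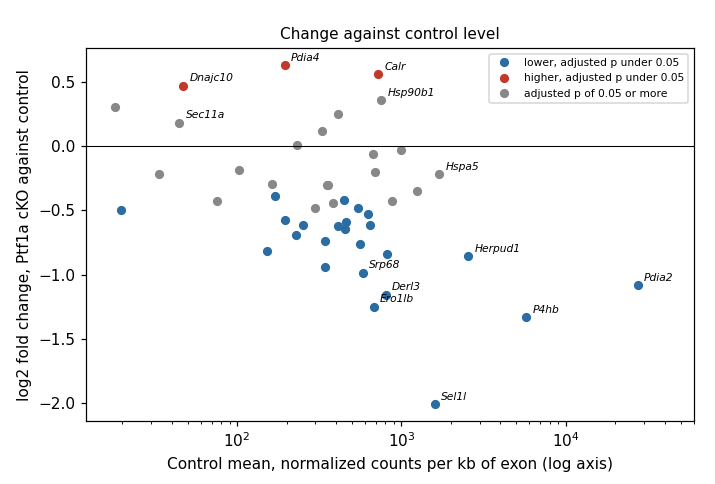
Log2 fold change of each of the 47 genes against its mean control level in normalized counts per kilobase of exon (log axis); colours mark the limma call. Sel1l, P4hb and Pdia2 combine high control levels with falls of at least 2-fold, while of the 3 genes called higher Pdia4 and Dnajc10 lie among the lowest 16 and Calr among the highest 16 by control level.

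Further genes of the same pathways, from lists of their known roles, moved in both directions. Over all genes 16.8% were called lower and 17.1% higher, with a median of 0.036. Of 20 other translocation genes 7 were lower and 1 higher, with a median of -0.13. Tram1, which lies beside the channel, fell from a mean of 3500 to 2006 normalized counts (-0.81, adjusted p = 0.00233, limma). Emc9, of the membrane insertion complex, was at -0.97 and Srp54a, the GTPase of SRP, at -0.67. The Srp54a call was lost in 5 of 6 fits with 1 library left out, all but that without Ptf1a cKO replicate 2 (adjusted p up to 0.104), and that of Emc9 without control replicate 1 (0.0543). Bag6, which guards hydrophobic chains in the cytosol, was higher (0.49).

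Of 32 other folding genes 3 were lower and 4 higher, smaller shares than over all genes (16.8% and 17.1%). Their median was 0.011. Fkbp11, a prolyl isomerase of secretory cells, fell from 1710, 1701 and 1462 to 712, 795 and 485 (-1.31, adjusted p = 9.16e-04, limma). Prdx4, the peroxiredoxin of the ER, and Txndc11 were at -0.70 and -0.66. Cnpy4 rose by 1.41, Txndc12 by 1.05 and Fkbp2 by 0.70 on the log2 scale. Of 27 other ERAD genes 12 were lower and 4 higher, with a median of -0.089. Ube2j1, the ubiquitin-conjugating enzyme of ERAD, was at -0.93, Svip at -0.92 and Vimp at -0.90. Ubxn8, Bcap31 and Erlec1 were higher by 0.75, 0.52 and 0.49. Vcp had the largest rise of this list (1.43, adjusted p = 0.0214, limma), but its groups overlapped. The Ubxn8 call was lost in each of the 6 fits with 1 library left out (adjusted p up to 0.129), and that of Erlec1 in 5, all but the one without Ptf1a cKO replicate 2 (up to 0.0961).

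Among 13 regulators of the unfolded protein response 4 were lower and 1 higher, with a median of -0.14. Of all genes, 16.8% were called lower and 17.1% higher. Atf6 fell from 1171, 1305 and 1262 to 473, 557 and 463 normalized counts (-1.32, adjusted p = 1.29e-04, limma), Eif2ak3, encoding PERK, by 1.10, and Atf4 by 1.04 on the log2 scale. Xbp1 had 4508, 4696 and 5547 normalized counts in controls and 5165, 5186 and 4041 in Ptf1a cKO, with overlapping groups (-0.039, adjusted p = 0.870, limma). Creb3l1, an ATF6-related factor, was higher (0.53, adjusted p = 0.0155, limma), with an adjusted p of 0.0549 without control replicate 1.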

How the data were processed

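RNA was taken from whole pancreas and libraries were sequenced as single-end reads. The submitters' processing notes list TopHat2 2.0.4, Bowtie 0.12.7.0, SAMtools 0.1.18.0, HTSeq 0.6.0 and mm9. The authors' methods name TMM normalization. The deposited values are a signal, namely normalized read counts per gene symbol and library with decimals and no step common to all libraries, so whole reads were not recovered and the depth behind a value cannot be read from them. Groups were taken from the labels, with 3 mice each. A further 3 rows named no gene (75.7% to 82.6% of a library: reads with no feature, ambiguous reads and alignments that were not unique) and were left out. Among the symbols 17 had become dates.

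All values were divided by 13.6, and log2(value + 0.25) was fitted by limma 3.58.1 (R 4.3.3) over 10245 genes, letting the prior variance follow the mean and adding no covariate. The filter, a mean of at least 0.25, removed none. p-values are two-sided with Benjamini-Hochberg adjustment, and 0.05 was the threshold. They measure the spread between mice. Fold changes understate those of low genes. Ratios were tested by exact permutation (scipy 1.17.1). Exon lengths came from GENCODE M21 (GRCm38), promoters from RefSeq. The fit was tested on simulated data. Alternatives were other pseudocounts (0.05 and 1), a minimum mean of 5 or none, 5 scalings, limma without a trend or robust, sex as a covariate, the replicate block, females only, an adjusted p under 0.01, and each library left out.

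All 47 genes are described. In the further lists the rule named up to 3 rises and 3 falls with groups apart, and Xbp1, Atf6 and Atf4, and in marker lists the highest gene and Ptprc, Krt19, Igj, Ins2 and Pga5. Vcp was named outside the rule, as the largest rise of its list. The members and lists were chosen with earlier results of these data known.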

Additional observations from a re-analysis of the deposited data

How the results depend on the processing

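The counts of 24 lower and 3 higher genes moved with the scaling. They were 17 and 5 with the same total without the secreted cargo (median of the 47 genes -0.26, all genes 0.21), 13 and 0 with the same total relative to the median gene (1606 genes called in all), and 1 and 42 with the same total (9716 genes called, median of the 47 genes 1.05). An adjusted p under 0.01 left 14 and 1 (1794 genes called in all), and females only gave 23 and 0 (median -0.61). With single libraries left out there were 16 to 26 lower and 1 to 4 higher genes, 2363 to 3601 genes called in all, and medians of -0.55 to -0.33. Over 19 alternatives (all but the same total and the stricter threshold), 12 called genes kept their call in every one: Srp68, Sec61b, Ssr1, Spcs1, Sec11c, Sdf2l1, P4hb, Ero1lb, Herpud1, Sel1l, Edem1 and Derl3. Of 892 member values 797 kept direction and side of the threshold, 68 lost and 13 gained a call, and 14 changed sign; the cause was not tested.

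The changes of sign were in genes near 0. With the same 75th percentile Edem2 was at 0.018 and Xbp1 at 0.0064, and with the median of ratios Srp14 was at -0.018. With the same total without the cargo Pdia6, Edem2 and Xbp1 were at 0.12, 0.16 and 0.14. In females only Ssr2, Pdia6 and Edem2 were at -0.020, 0.017 and 0.012. With single libraries left out Srp14 ran from -0.12 to 0.080, Edem2 from -0.11 to 0.043, Pdia6 from -0.19 to 0.0088 and Xbp1 from -0.10 to 0.080. The log2 ratio of Dnajb11 to Dnajc3 was 0.0022 with a pseudocount of 1 and -0.069 to 0.039 with single libraries left out.

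Whether replicate numbers pair the samples was not settled. Same-numbered libraries had correlated deviations of 0.0391, 0.134 and 0.144, and differently numbered ones ran from -0.202 to 0.0829. With the replicate block 24 genes were lower, 3 higher, and 3525 called in all. Among the 47 genes Srp72 lost its call and Ssr4 gained one, and among the further genes named by the rule Srp54a and Ubxn8 lost theirs. Ptf1a cKO replicate 1 alone correlated best with another number, at 0.0829 with control replicate 2.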
